A study of Homo sapiens with 4 samples.

Results

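The genes described here are 31 targets of the transcription factor NRF2 and enzymes of redox balance, measured in MKN45 cells, an established line of human gastric epithelial cells from an adenocarcinoma. The members were listed by symbol, and each was represented by the brightest of the array probe sets that the platform annotation gives to that symbol alone. Of the 31 members, 30 had such a probe set, among 19775 genes in all, and the 30 also passed the filter on low levels that left 16252 genes for the tests. FTH1, the ferritin heavy chain, was not analysed here, since no probe set carried its symbol alone. Cells grew in RPMI with foetal calf serum and were given either fresh medium (untreated, 2 arrays) or 10 µg/ml lipopolysaccharide of Helicobacter pylori (LPS, 2 arrays), and total RNA was taken 8 h later. LPS is a glycolipid of the outer bacterial membrane, and H. pylori is a bacterium of the human stomach. The series text speaks of 2 independent experiments on this single line, and the comparison asks which transcripts respond to the bacterial product.

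NRF2, encoded by NFE2L2, is held in the cytoplasm by KEAP1, an adaptor that hands it to a ubiquitin ligase built on CUL3. Oxidants and electrophiles modify KEAP1, and NRF2 then accumulates, enters the nucleus, pairs with a small MAF protein and binds the antioxidant response element of its targets. Those targets make glutathione, reduce thioredoxin and quinones, supply NADPH, store iron and export conjugates. In the stomach lining, which meets ingested chemicals and H. pylori, this system is part of the defence against oxidative damage.

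Values were log2 levels as deposited, with array medians of 7.004 to 7.034, and 2 arrays a group set the limit of precision. The label's cell type was checked against markers. Of 18 epithelial markers 17 were above the level filter of 6.06, among them EPCAM at 13.84 and KRT18 at 14.60 in untreated cells, while KRT20 lay at 5.91. The filter was low, and 9 of 11 leukocyte markers and 8 of 10 fibroblast and endothelial markers with a value also lay above it. The median level in untreated cells was 12.50 for the epithelial list, 6.73 for the leukocyte list and 6.89 for the fibroblast and endothelial list. The brightest of the last 2 lists were LYZ, lysozyme, at 12.74, the leukocyte gene CD53 at 8.39 and the collagen gene COL1A1 at 9.12. The leukocyte genes PTPRC and CD14 (5.55 and 5.57) and the endothelial genes CDH5 and KDR (5.39 and 5.30) were the 4 under the filter. The cells responded to LPS, since CXCL8, which encodes interleukin 8, went from 7.77 and 7.58 to 9.42 and 9.39 and was 3.31-fold higher (limma adjusted p = 0.00125). The spike-in controls that pass through labelling with the sample RNA differed in level between the groups. On 24 of 24 of their probe sets the LPS arrays both lay under the untreated pair, by a mean log2 difference of -0.48. Their means were 8.60 and 8.25 on the untreated and 7.98 and 7.92 on the LPS arrays, so the untreated arrays also differed from each other. Their part in the results below was not tested.

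The antioxidant response element, which NRF2 binds, has the core TGACNNNGC. The bases just before the start of the members' genes were searched for it, and elements farther from the start were not. Of the 250 bases before each start in the RefSeq promoter table (GRCh38.p14), on either strand, 3830 of 35116 promoters held the core (10.9%), or 3609 of 27305 genes (13.2%). The table matched 23 members with 29 promoters, and 8 of these members held the core (34.8%). They were KEAP1, GCLM, GPX2, GSTP1, TXNRD1, PGD, ME1 and CBR1. Of the other pathway genes listed by function below, 17 of 73 in the table held the core (23.3%). The longer form, in which an A follows the core, was held by 6 of the 23 members and by 3.22% of all genes in the table. Of those 73 other pathway genes, 4 held it (5.48%). A match describes letters only, and no match says only that these letters are not in this window. The following promoters are shown for 5 members with a match and for UGDH, the member with the smallest p, which had none. Each is given 5′ to 3′ on the gene's strand, and the capitals mark the core on either strand.
KEAP1, chr19:10502772-10503021, minus strand: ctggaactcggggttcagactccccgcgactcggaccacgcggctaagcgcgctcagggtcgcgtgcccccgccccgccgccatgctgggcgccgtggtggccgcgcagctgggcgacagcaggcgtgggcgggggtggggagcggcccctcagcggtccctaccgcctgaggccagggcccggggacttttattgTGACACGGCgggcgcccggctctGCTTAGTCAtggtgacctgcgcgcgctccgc
GCLM, chr1:93909431-93909680, minus strand: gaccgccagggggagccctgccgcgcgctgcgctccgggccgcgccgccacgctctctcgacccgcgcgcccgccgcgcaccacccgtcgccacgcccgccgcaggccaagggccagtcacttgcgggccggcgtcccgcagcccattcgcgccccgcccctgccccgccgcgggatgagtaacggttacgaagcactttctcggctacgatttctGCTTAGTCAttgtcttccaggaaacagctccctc
GPX2, chr14:64942746-64942995, minus strand: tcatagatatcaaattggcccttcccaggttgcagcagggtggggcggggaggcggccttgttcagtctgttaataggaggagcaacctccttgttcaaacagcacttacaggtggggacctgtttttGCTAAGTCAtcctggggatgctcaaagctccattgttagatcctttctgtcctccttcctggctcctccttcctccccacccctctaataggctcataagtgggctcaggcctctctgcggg
TXNRD1, chr12:104286782-104287031, plus strand: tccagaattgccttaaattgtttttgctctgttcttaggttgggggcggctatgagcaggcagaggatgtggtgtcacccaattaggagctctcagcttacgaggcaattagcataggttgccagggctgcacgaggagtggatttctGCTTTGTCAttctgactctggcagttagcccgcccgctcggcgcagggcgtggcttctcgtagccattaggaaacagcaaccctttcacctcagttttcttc
CBR1, chr21:36069774-36070023, plus strand: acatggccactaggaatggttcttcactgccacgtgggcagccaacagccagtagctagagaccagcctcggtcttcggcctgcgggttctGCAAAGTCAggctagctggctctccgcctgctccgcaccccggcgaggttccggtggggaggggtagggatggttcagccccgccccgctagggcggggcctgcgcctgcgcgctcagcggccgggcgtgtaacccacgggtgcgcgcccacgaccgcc
UGDH, chr4:39527440-39527689, minus strand: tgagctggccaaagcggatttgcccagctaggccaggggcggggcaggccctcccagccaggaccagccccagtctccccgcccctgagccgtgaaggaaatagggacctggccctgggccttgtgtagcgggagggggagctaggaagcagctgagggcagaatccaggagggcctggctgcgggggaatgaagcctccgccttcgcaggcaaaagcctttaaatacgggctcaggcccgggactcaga
In KEAP1 a second match on the gene's own strand precedes the one that has the longer form. The match began 34 bases before the start in GCLM, 122 in GPX2, 102 in TXNRD1 and 159 in CBR1. Another start of TXNRD1 held a different match, TGACTTCGC.

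No member of the NRF2 list differed between LPS-treated and untreated cells past the threshold. In limma's moderated test, 0 of 30 members were called at an adjusted p under 0.05, against 4 of 16252 genes (0.0246%), all 4 higher with LPS. Without adjustment, 7 members had lower values with LPS at p under 0.05 and 1 had higher values. The lower members were UGDH, ABCC3, AKR1C3, AKR1B10, NFE2L2, AKR1C2 and GCLC, and the higher member was SQSTM1. Over all genes 7.91% were lower and 3.72% higher at that level. Among all genes in the 3 brightest of 10 bins by level, 13.7% were lower and 3.49% higher. In those bins lay 25 of the 30 members, of which 6 were lower and 1 higher. On the brightest probe sets the member differences were small, from 1.24-fold lower (ABCC3) to 1.17-fold higher (SQSTM1). Dimmer probe sets of ABCC1 and ME1 lay above that range, at log2 fold changes of 0.34 and 0.25, and none above the filter lay below it. The 95% interval lay inside a 1.5-fold change in either direction for 30 of 30 members, each interval being for its own gene alone. HMOX1, ABCC2 and OSGIN1 were faint, with untreated means of 7.53, 7.43 and 7.57. The leukocyte genes CD3D and CD3E read 7.29 and 7.90, so such levels may lie near background. A narrow interval at that level need not describe a stable transcript. In these bulk samples, fewer cells with a transcript and less transcript per cell cannot be told apart.

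**Figure D1:**
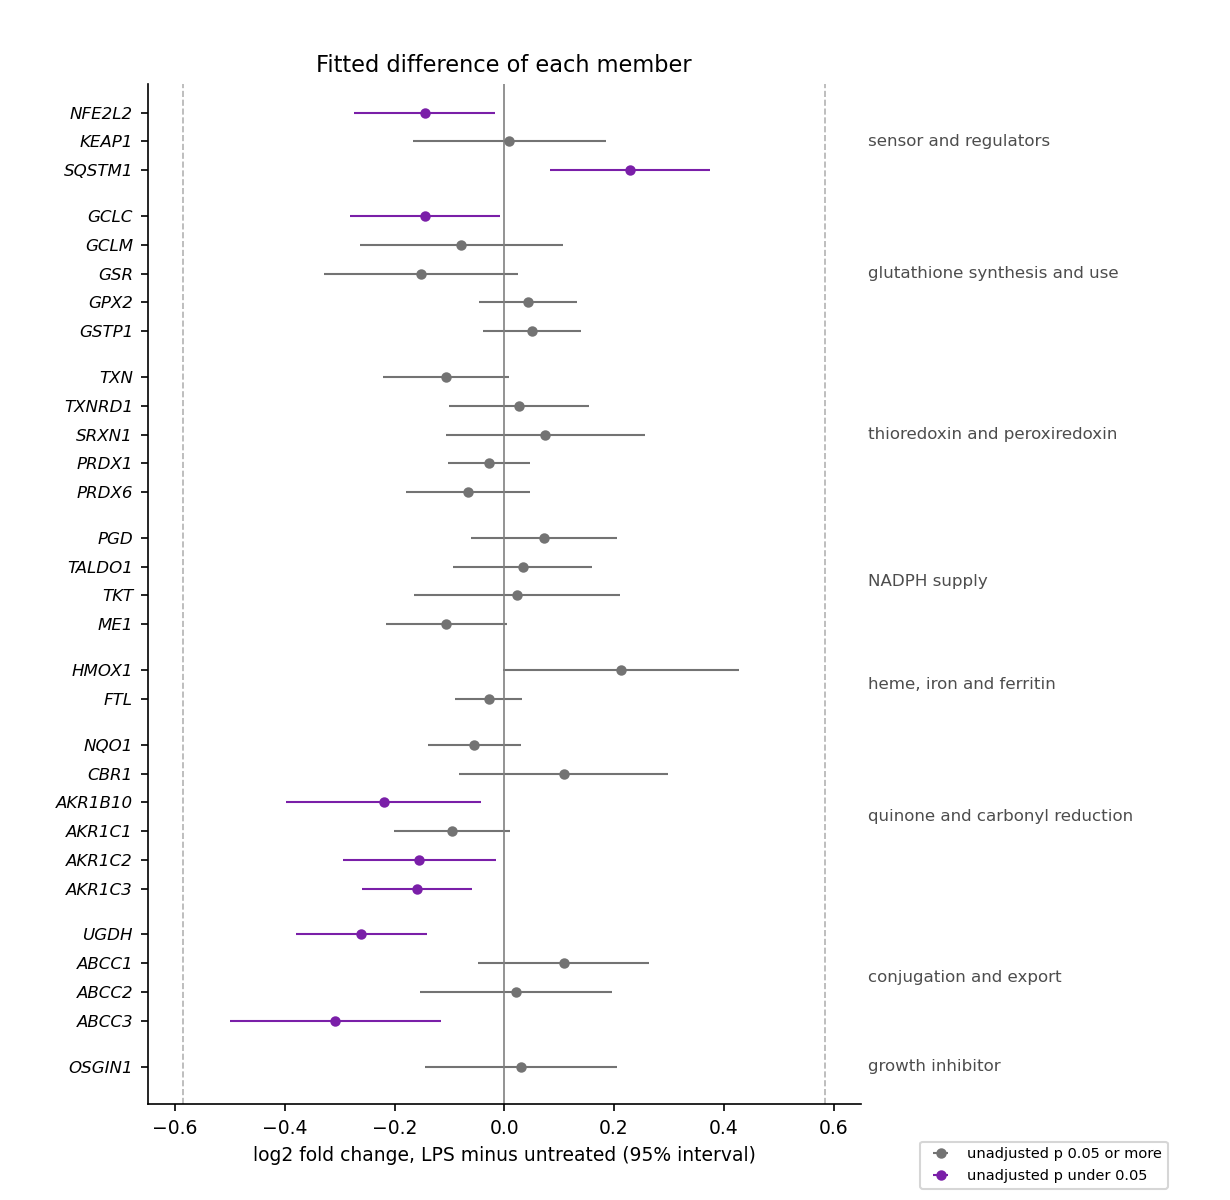
Fitted log2 fold change (LPS minus untreated, horizontal axis) of the 30 members with a probe set, grouped by role, with 95% intervals from limma. Purple marks the 8 members at an unadjusted p under 0.05, the dashed lines mark a 1.5-fold change, and no interval reaches them.

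The count of lower members changed with the scaling and with single arrays, and the share over all genes changed with it. After quantile normalization 4 members were lower and 3 higher by the same unadjusted threshold, beside 6.02% and 5.64% of all genes. After cyclic loess 5 were lower and 3 higher, beside 6.33% and 5.32%. Of the genes in the 3 brightest bins, 8.68% were lower after quantile normalization and 8.96% after cyclic loess. When untreated replicate 1 was left out, 3 members and 5.04% of all genes were lower, and leaving out untreated replicate 2 gave 8 members and 13.6%. Leaving out LPS replicate 1 gave 4 members and 3.74%, and LPS replicate 2 gave 2 members and 2.56%. The higher count was 2 without either of the untreated arrays (2.44% and 6.73% of all genes) and 1 without either of the LPS arrays (2.47% and 1.45%).

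Among the sensor and its regulators, NFE2L2 was lower and SQSTM1 higher with LPS, neither past the threshold. NFE2L2, which encodes NRF2 itself, lay at 12.37 and 12.25 in untreated and 12.15 and 12.17 in LPS-treated cells. Both LPS arrays were below both untreated arrays, with a log2 fold change of -0.15 (interval -0.27 to -0.02, limma adjusted p = 0.393). Its second probe set above the filter differed by -0.0049, with overlapping arrays. SQSTM1 encodes p62, an autophagy receptor that binds KEAP1 and is itself an NRF2 target. It went from 11.11 and 11.21 to 11.42 and 11.36, both LPS arrays above both untreated arrays. The difference was 0.23 (interval 0.08 to 0.38, limma adjusted p = 0.327). Its probe sets did not all point the same way: 3 of the 4 above the filter were higher, by 0.23, 0.12 and 0.21, and 1 was lower, by a log2 fold change of -0.28. KEAP1 lay at 10.58 and 10.65 in untreated and 10.55 and 10.70 in LPS-treated cells. The LPS arrays enclosed the untreated ones, and the interval was -0.17 to 0.19.

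In the glutathione group, GCLC was the member at an unadjusted p under 0.05, and it was lower. GCLC, the catalytic subunit of the enzyme that limits glutathione synthesis, read 11.29 and 11.23 in untreated and 11.14 and 11.10 in LPS-treated cells. Its difference was -0.14 (interval -0.28 to -0.01, limma adjusted p = 0.414), and its other probe sets differed by -0.19 and -0.07. The modifier subunit GCLM lay at 9.61 and 9.49 against 9.51 and 9.44, and the groups overlapped (interval -0.26 to 0.11). Glutathione reductase, GSR, which regenerates reduced glutathione, lay at 9.82 and 9.85 against 9.62 and 9.74, with both LPS arrays below (difference -0.15, limma adjusted p = 0.467). Its second probe set also differed by -0.15, with overlapping arrays. GPX2, the glutathione peroxidase of the gastrointestinal epithelium, read 13.19 and 13.23 without LPS and 13.23 and 13.28 with it. GSTP1, which conjugates electrophiles to glutathione, read 13.23 and 13.26 without LPS and 13.27 and 13.33 with it. Their intervals were -0.05 to 0.13 and -0.04 to 0.14. The dimmer GPX2 probe set differed by -0.17, so the mean of both had the other sign.

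The thioredoxin and peroxiredoxin genes held no member at an unadjusted p under 0.05. Thioredoxin, TXN, a small protein that reduces disulfides, lay at 13.04 and 13.07 in untreated and 13.01 and 12.89 in LPS-treated cells. Both LPS arrays were lower, and the difference was -0.11 (interval -0.22 to 0.01, limma adjusted p = 0.444), against -0.20 on its other probe set. TXNRD1, the reductase that recharges thioredoxin with NADPH, read 11.30 and 11.29 against 11.33 and 11.31. Both LPS arrays were above, but by a difference of 0.03 (interval -0.10 to 0.15). Sulfiredoxin, SRXN1, which repairs overoxidised peroxiredoxins, differed by 0.07 (interval -0.11 to 0.26) with overlapping arrays. The peroxide-removing PRDX1 differed by -0.03 (interval -0.10 to 0.05) and PRDX6 by -0.07 (interval -0.18 to 0.05). PRDX6 had 1 array apart from the other 3, untreated replicate 1 at 13.42 against 13.29 on each of the others.

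**Figure D2:**
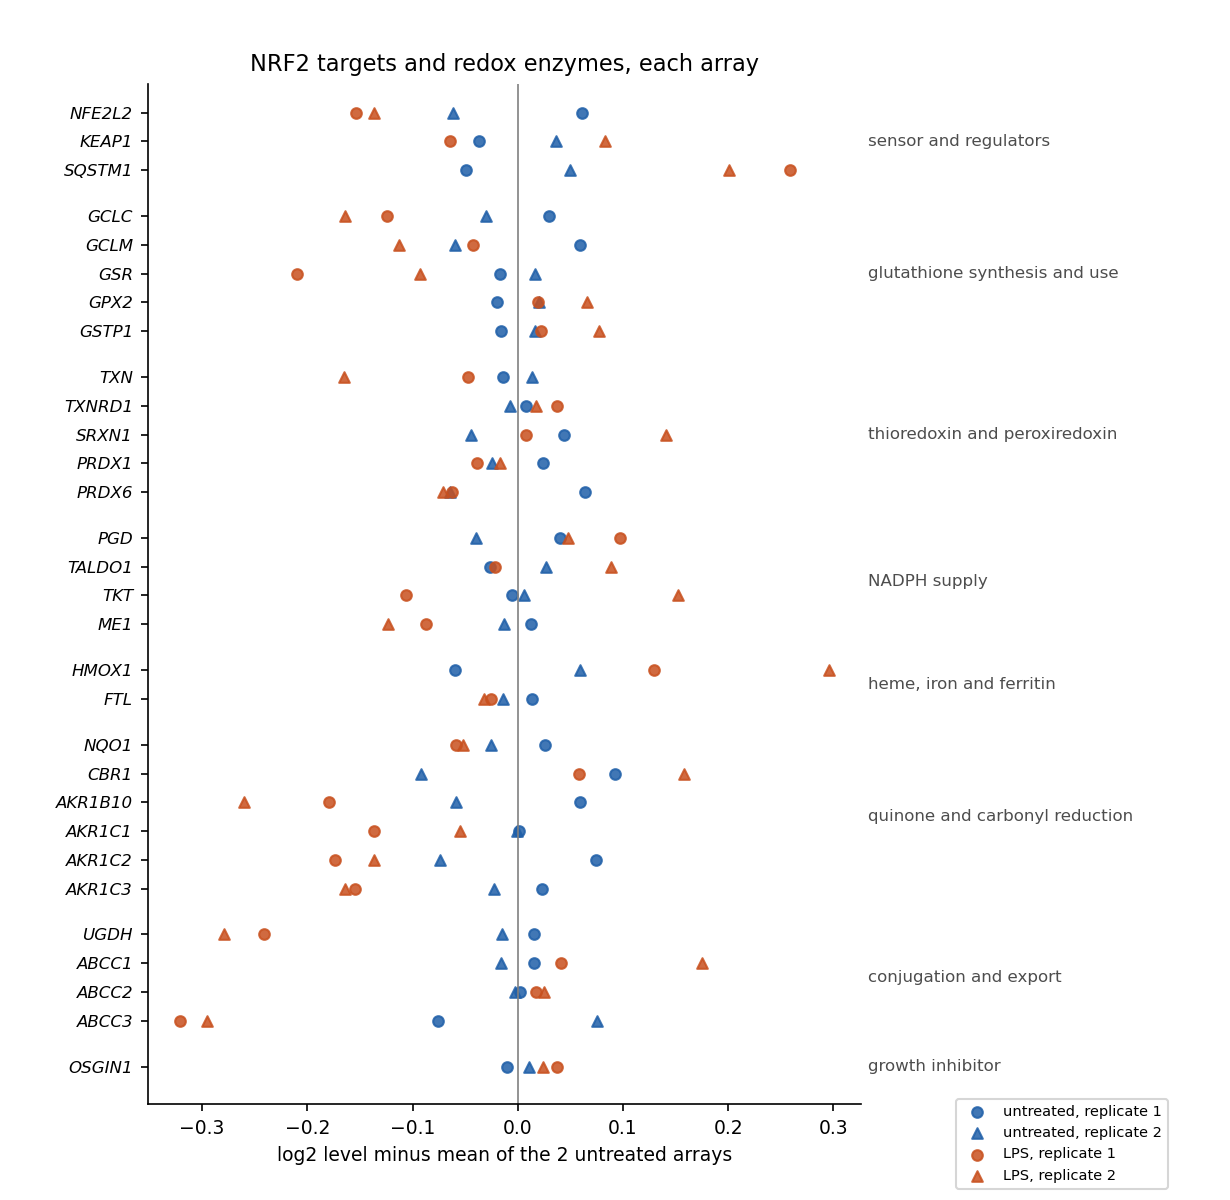
Level of each of the 30 members on each of the 4 arrays, as log2 level minus the mean of the 2 untreated arrays (horizontal axis), with circles for replicate 1 and triangles for replicate 2. Both LPS arrays (orange) lie left of both untreated arrays (blue) for 13 members (25.7% of all genes tested) and right of them for 8 (19.7% of all genes), and the groups overlap for 9.

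The genes that supply NADPH, the electron source of both systems, had differences in both directions, none past the threshold. PGD, a dehydrogenase of the pentose phosphate pathway, read 11.58 and 11.51 in untreated and 11.64 and 11.59 in LPS-treated cells. Both LPS arrays were above, as for 19.7% of all genes (difference 0.07, interval -0.06 to 0.21). Transaldolase, TALDO1, and transketolase, TKT, of the same pathway's non-oxidative arm, differed by 0.03 (interval -0.09 to 0.16) and 0.02 (interval -0.16 to 0.21). The LPS arrays of TKT lay on either side of the untreated ones, at 12.53 and 12.79 against 12.63 and 12.64, and without LPS replicate 2 its difference was -0.11. Malic enzyme, ME1, read 12.19 and 12.17 against 12.09 and 12.05 on its brightest probe set, a difference of -0.11 (interval -0.21 to 0.0042, limma adjusted p = 0.432). Its other probe sets pointed the other way, with differences of 0.08 and 0.25 and both LPS arrays above both untreated arrays on each.

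HMOX1, heme oxygenase, which breaks down heme and is among the most inducible NRF2 targets, was higher with LPS without passing. It went from 7.47 and 7.59 to 7.66 and 7.82, with both LPS arrays above both untreated arrays. The difference was 0.21 (interval -0.0030 to 0.43, limma adjusted p = 0.427), and with any 1 array left out it was 0.13 to 0.30. HMOX1 was measured by 1 probe set, at a level between those of the leukocyte genes CD3D and CD3E (7.29 and 7.90 in untreated cells). FTL, the light chain of the iron store ferritin, read 14.47 and 14.44 without LPS and 14.43 and 14.42 with it, a difference of -0.03 (interval -0.09 to 0.03). Its probe sets are of the _x_at type, which can bind transcripts of related genes.

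Of the enzymes that reduce quinones and carbonyls, 5 of 6 had both LPS arrays below both untreated arrays. Over all genes tested that arrangement held for 25.7%, and among genes in the 3 brightest of 10 bins by level, where all 6 lay, for 37.9%. The median of the 6 was -0.13. Without _x_at and _s_at probe sets 3 of the 6 were left (AKR1C1, AKR1C3 and CBR1), and their median was 0.01. That median was the value of AKR1C1, then read from a faint probe set. Its mean level was 6.82, near the filter of 6.06, against 12.68 for the brightest AKR1C1 probe set. AKR1B10 reduces aldehydes and retinal. It went from 10.27 and 10.15 to 10.03 and 9.95, a difference of -0.22 (interval -0.40 to -0.04, limma adjusted p = 0.364). AKR1C3, which reduces steroids and prostaglandins, went from 12.67 and 12.62 to 12.49 and 12.48. Its difference was -0.16 (interval -0.26 to -0.06, limma adjusted p = 0.324), and the gap between the groups exceeded the spread within either. Its near relatives AKR1C1 and AKR1C2 differed by -0.10 (interval -0.20 to 0.01) and -0.16 (interval -0.29 to -0.02) on their brightest probe sets. Those probe sets are of the _x_at type, and transcripts of the AKR1C genes are closely alike, so these signals may not be separate measurements. The other AKR1C1 probe sets above the filter differed by -0.08, -0.01 and 0.01. The other AKR1C2 probe set above it differed by -0.08 (interval -0.20 to 0.03 in the fit with no level filter).

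NQO1, a quinone reductase often used as a readout of NRF2, lay at 13.41 and 13.36 in untreated and 13.32 and 13.33 in LPS-treated cells. Both LPS arrays were lower, by -0.06 (interval -0.14 to 0.03, limma adjusted p = 0.568), and its other probe sets differed by -0.13 and -0.11, also with both LPS arrays below. CBR1, a carbonyl reductase, differed the other way by 0.11 (interval -0.08 to 0.30), with LPS arrays at 10.87 and 10.97 and untreated arrays at 10.90 and 10.72.

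The conjugation and export group held the member with the smallest p, UGDH, and the one with the largest difference, ABCC3, both lower with LPS. UGDH makes UDP-glucuronate, the sugar donor for glucuronidation. It lay at 11.87 and 11.84 in untreated and 11.62 and 11.58 in LPS-treated cells. The untreated arrays agreed closely, as did the LPS arrays, and UGDH was 1.20-fold lower (log2 fold change -0.26, interval -0.38 to -0.14). Its adjusted p of 0.257 in limma was the smallest of the members. With any 1 array left out the difference was -0.28 to -0.24. UGDH had 1 probe set.

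ABCC3, an exporter of glucuronide conjugates and bile acids, read 9.41 and 9.56 in untreated and 9.17 and 9.19 in LPS-treated cells. It was 1.24-fold lower (log2 fold change -0.31, interval -0.50 to -0.12, limma adjusted p = 0.323). Its 5 probe sets were all lower, by -0.31 to -0.0068, and 4 of them had both LPS arrays below both untreated arrays. ABCC1, an exporter of glutathione conjugates, went the other way. Its brightest probe set read 11.13 and 11.10 against 11.15 and 11.29, a difference of 0.11 (interval -0.05 to 0.26, limma adjusted p = 0.540). Its second probe set read 9.46 and 9.46 against 9.74 and 9.87, a difference of 0.34 (interval 0.17 to 0.52 in the fit with no level filter). ABCC2, the exporter of the bile canaliculus, lay at 7.43 on both untreated arrays and at 7.45 and 7.46 with LPS. OSGIN1, an oxidative stress-induced growth inhibitor, differed by 0.03 (interval -0.14 to 0.20). ABCC2 and OSGIN1, like HMOX1, were faint, with untreated means of 7.43 and 7.57.

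**Figure D3:**
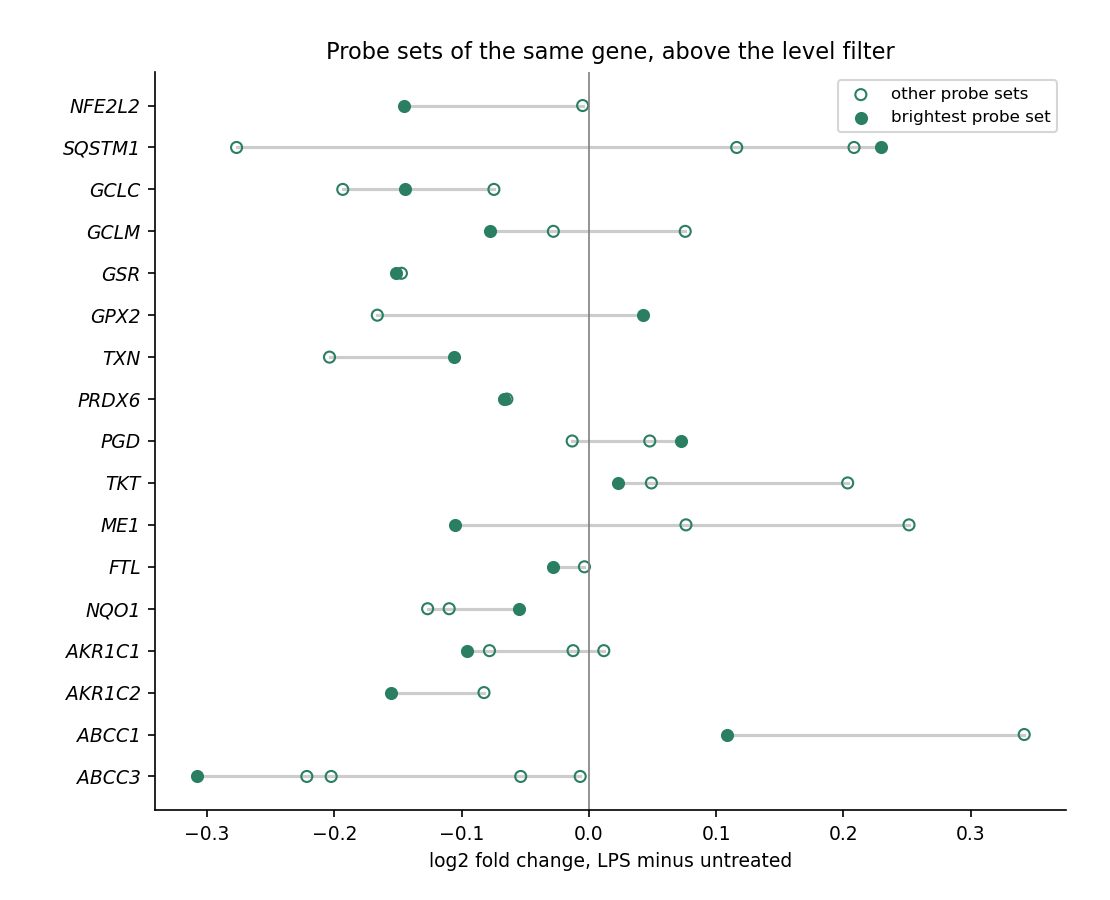
Log2 fold change (LPS minus untreated, horizontal axis) of every probe set above the level filter for the 17 members with more than 1, the brightest filled and the others open. For 11 members the probe sets lie on 1 side of 0, as for ABCC3, NQO1 and ABCC1, and for SQSTM1, GCLM, GPX2, PGD, ME1 and AKR1C1 they lie on both sides.

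The members' other probe sets gave a further measure of the same RNA. The 30 members had 65 probe sets of 1 symbol, and 60 were above the filter. Of these 60, 36 were lower and 24 higher with LPS. Among the 30 that the choice of the brightest did not take, 20 were lower and 10 higher. By the brightest probe set of each gene, 51.8% of all genes tested were lower, and 65.6% of those in the 3 brightest bins. Most of the members' other probe sets lay under the level of 9.68 where those bins start. In the fainter bins 36.2% to 60.7% of genes were lower. The share over all probe sets of like level was not computed. The members' other probe sets were read from the same 4 arrays, so they share the arrays' errors.

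The differences of the list were set beside those of all genes and of genes as bright. The members' median log2 fold change was -0.03, with 16 lower and 14 higher, and the median of all genes tested was -0.0047, with 51.8% lower. Members lay at 7.43 to 14.45 in untreated cells, and 25 of the 30 were among the 4876 brightest genes, the upper 3 of 10 equal bins by level. Bright genes as a whole had negative values: in those bins the median of all genes was -0.04, 65.6% were lower, and 37.9% had both LPS arrays below both untreated arrays. The 25 members there had a median of -0.03, 14 were lower, and 12 had both LPS arrays below. After quantile normalization the median of the bright genes was 0.0015, with the members at -0.03. After cyclic loess the members were at -0.0070. UGDH, at -0.26, was in the brightest bin, where the median of all genes was -0.03, and SQSTM1, at 0.23, in the bin below, where it was -0.05.

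**Figure D4:**
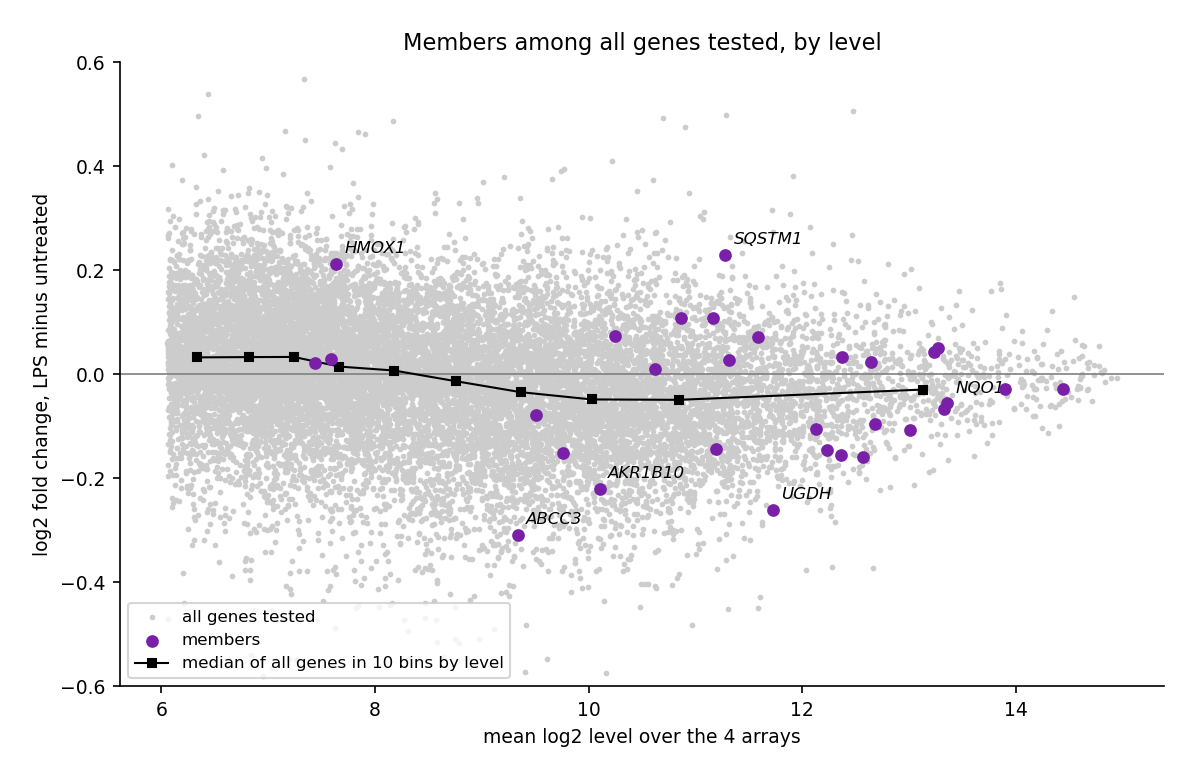
Log2 fold change (LPS minus untreated, vertical axis) against the mean log2 level over the 4 arrays (horizontal axis) for all genes tested (grey, 10 of them beyond the plotted range of 0.6) and the 30 members (purple). The black line joins the medians of all genes in 10 bins by level, which pass from above 0 for faint genes to below 0 for bright ones, and most members lie in the bright range on both sides of it.

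The promoter matches were set beside the differences. By the brightest probe set, the 8 members with the core had log2 fold changes of -0.11 to 0.11 (median 0.03), with 2 lower and 6 higher. The 15 with a promoter in the table and no core had -0.26 to 0.23 (median -0.06). The signs were not all stable. With the core, GCLM, GPX2, PGD and ME1 had probe sets on both sides of 0, and without it SQSTM1 and AKR1C1 did. KEAP1, GPX2 and ME1 with the core changed sign in some other setting, as did SQSTM1, AKR1C1, TALDO1 and TKT without it. Of the 8 members at an unadjusted p under 0.05, 6 had a promoter in the table and 0 of those held the core. Among all 23 members with a promoter, 8 held it. The near relatives AKR1C2 and AKR1C3 are both among the 6. These are counts in a short window, given as a description without a test.

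Other genes of the pathway were listed by function. Of 86 genes, 79 had a probe set of 1 symbol and 77 were tested. In limma 0 of 77 were called. By the unadjusted p, 1 was higher (1.30%) and 8 were lower (10.4%) under 0.05, beside 3.72% and 7.91% of all genes. Among all genes in the 3 brightest bins 3.49% were higher and 13.7% lower. The related genes tested lay at 6.52 to 13.94 in untreated cells. The median was -0.03. SLC40A1 encodes ferroportin, which exports iron from cells. It went from 12.26 and 12.18 to 11.87 and 11.81 and was 1.30-fold lower (interval of the log2 fold change -0.50 to -0.25, adjusted p = 0.253). TXNIP, which binds and inhibits thioredoxin, went from 11.38 and 11.40 to 11.06 and 10.98, also 1.30-fold lower (interval -0.51 to -0.24, limma adjusted p = 0.257). For both, the LPS arrays lay below the untreated ones by more than the spread within either group.

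The antioxidant enzymes SOD1, a superoxide dismutase, and GPX1, a glutathione peroxidase, differed by -0.13 and -0.15 with adjusted p-values of 0.320 and 0.342 in limma. GSTM3, a glutathione transferase, differed by -0.14, and CBR4, a mitochondrial carbonyl reductase, by -0.19. The cystine importer SLC7A11, which feeds glutathione synthesis, differed by 0.01 (interval -0.12 to 0.15). BACH1, a repressor that competes for the antioxidant response element, differed by -0.03 (interval -0.25 to 0.19), and MAFG, a small MAF partner of NRF2, by 0.09 (interval -0.18 to 0.36). MAFF, another small MAF, was the 1 related gene higher at an unadjusted p under 0.05 (0.24, interval 0.01 to 0.46). The other related genes lower at that level were CUL3, the scaffold of NRF2's ligase (-0.16, interval -0.29 to -0.03), and ALDH1A1, a retinal dehydrogenase (-0.28, interval -0.53 to -0.03). These 3 are named after their values were seen. Catalase, CAT, differed by -0.06 (interval -0.19 to 0.07) and GPX4, which removes lipid peroxides, by -0.04 (interval -0.15 to 0.07).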

How the data were processed

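The data were the authors' deposited log2 levels on 4 Affymetrix arrays, 54613 probe sets after 62 controls were left out. The scale was judged from the values. MAS5 and RMA are named in the submitters' processing notes, and which of them made these values is not given in the sources used here. The distributions were nearly equal on all arrays, which hides a shift of all transcripts in 1 direction. Left out of the tests were probe sets with a mean under the 30 percentile (6.06). Symbols came from the platform annotation. The comparison of the groups used limma 3.58.1 under R 4.3.3 (lmFit and eBayes with an intensity trend, 7.06 degrees of freedom in total, no replicate block), fitted on all probe sets above the filter. P-values were two-sided and Benjamini-Hochberg adjusted over the 16252 genes, with a threshold of 0.05. Intervals are 95% intervals. Each gene was its brightest probe set. Members' other probe sets were read from a fit with no filter.

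All members were named, and of the related genes the 6 with the smallest p and SLC7A11, BACH1, MAFG, CAT and GPX4, with 1 item of this rule not reported here. Members and lists were chosen with earlier results of these data known. Arrays shared replicate numbers, and the labels do not say that a number marks an experiment. The p-values measure the spread between these arrays. Alternatives were other filters, normalizations, variance models, probe set choices, the replicate block and leaving out each array. The fit on gene values alone was chosen after seeing the data.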

Additional observations from a re-analysis of the deposited data

How the results depend on the processing

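The fit on gene values alone was chosen after seeing the data. In the 15 settings other than the reported fit, that fit on gene values included, 0 members of the NRF2 list and 0 related genes were called. The threshold was an adjusted p under 0.05, and the reported fit gave the same counts. In the reported fit 0 of either list, and 4 of all genes, passed an adjusted p under 0.1. Over all genes the count called went from 4 to 7 (2 lower) with the replicate block and to 10 (5 lower) on gene values alone. It included 1 lower gene with the mean of probe sets or without _x_at and _s_at probe sets, and 0 to 1 with an array left out. Replicate differences correlated at 0.10 between the groups across all genes and at 0.23 across the members, which share arrays, and 2 pairs do not settle whether the numbers pair the arrays. With the replicate block 8 members were lower and 2 higher without adjustment (p under 0.05). Of all genes 10.4% were lower and 4.92% higher in that setting, and of the bright genes 18.8% were lower. Members lower at that level numbered 4 after quantile normalization (6.02% of all genes) and 3 without an intensity trend (6.82% of all genes). Members higher numbered 3 after quantile normalization or cyclic loess (5.64% and 5.32% of all genes). They numbered 2 with the mean of probe sets or on gene values alone (4.80% and 4.68% of all genes). The members' median was -0.05 to -0.0091 with an array left out, and 0.016 without _x_at and _s_at probe sets, where 24 members were left. Of 444 values of single members under other settings, 434 kept their sign. The reversed ones were KEAP1 after median centring (-0.0048) and with an array left out (-0.064 to 0.083), TALDO1 (-0.022 to 0.089) and TKT (-0.11 to 0.15) with an array left out, SQSTM1 (-0.28), ME1 (0.076) and AKR1C1 (0.012) without _x_at and _s_at probe sets, and GPX2 (-0.062) and ME1 (0.074) with the mean of probe sets. The last 2 settings read other probe sets of the gene, and the cause of the other reversals was not tested. Where an array was left out, its partner was taken to vary as the other group does. With the longer promoter form, 6 of 23 members had a match.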
